A study of Homo sapiens with 12 samples.

Results

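The BCL2 family genes described here are 10 genes whose products set whether the outer mitochondrial membrane is opened during apoptosis: BCL2, BCL2L1, MCL1, BAK1, BID, BIK, BAD, PMAIP1, BCL2L11 and BNIP3L. Their members on the HG-U133A array are all probe sets annotated to one of these genes, 24 of 22283 probe sets, and none of the 24 was also annotated to a second gene. Messenger RNA was measured on 12 arrays in 4 groups of 3 arrays each, made from independent RNA preparations of A549, a human lung adenocarcinoma line, and of 143BTK-, a human osteosarcoma line that lacks thymidine kinase. In each line, ρ° cells without mitochondrial DNA (mtDNA) were set against the undepleted parental ρ+ cells. The ρ° cells came from culture with ethidium bromide at 50 ng/ml for 3 weeks and were pooled, with no clone selected, and the cells of all 4 groups grew in high-glucose medium that held 10% fetal calf serum, 1 mM pyruvate and uridine at 50 µg/ml. The parental cells were not described as treated with ethidium bromide, so a past exposure to the dye and the loss of mtDNA cannot be told apart.

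Proteins of the BCL2 family decide when cytochrome c leaves the mitochondrion. Anti-apoptotic members such as BCL2, BCL-XL (the product of BCL2L1) and MCL1 hold the pore-forming effectors BAK and BAX in check, and the BH3-only proteins BID, BIK, BAD, NOXA (the product of PMAIP1) and BIM (the product of BCL2L11) either block those guards or activate the effectors. NOXA binds MCL1 with preference and is known to promote its degradation. BNIP3L, also called NIX, is a related outer membrane protein best known as a receptor for mitophagy, the removal of whole mitochondria by autophagy.

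Signals are MAS5 values on a linear scale that were quantile-normalized within each line, so a level in A549 and a level in 143BTK- are not on the same scale, and the level of one probe set says nothing about that of another. Probe sets of low signal were left out of the tests: each line kept those of highest mean log2 signal, in the number the study's methods kept by absent calls, which were not used here. Of the 24 member probe sets, 15 from 7 genes passed this filter in A549 and 20 from 9 genes in 143BTK-, and the 15 of A549 were all kept in 143BTK- too. BIK passed in neither line, and BCL2 and BCL2L11 passed in 143BTK- alone. In these bulk samples, fewer cells of a type and less RNA per cell cannot be told apart.

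The 6 A549 arrays each correlated best with an array of their own group, whereas 3 of the 6 arrays of 143BTK-, its 3 ρ° arrays, each correlated best with a ρ+ array. Correlations of log2 signals within a group lay between 0.9185 and 0.9558 in A549 and between 0.9049 and 0.9684 in 143BTK-. Among the markers of A549 as an epithelial line, KRT18 (mean signal 8228 in ρ+ and 3345 in ρ° cells) and KRT8 (3210 and 1453) were abundant, KRT19 was 409 in ρ+ and 3.53 in ρ° cells, and EPCAM was at most 8.6. In 143BTK-, VIM (6366 and 6710) and SPARC (595 and 734) were abundant, whereas the bone factor RUNX2 was at most 12.5. The other listed markers are not given singly. The summed signal of the 15 mesenchymal and bone probe sets ran from 6680 to 8091 on the ρ+ and from 7666 to 8841 on the ρ° arrays of 143BTK-. In A549 it ran from 2766 to 4993 on the ρ+ and from 4404.5 to 4991 on the ρ° arrays. Most of the 143BTK- sum was VIM, so that sum says little about the other listed mesenchymal and bone markers. The summed signal of the 6 epithelial probe sets ran from 10761 to 13194 on the ρ+ and from 3709 to 6972 on the ρ° arrays of A549. The summed signal of 9 probe sets for leukocytes and endothelium was 114.7 to 174.6 and 98.8 to 145.9 in the same groups, with the leukocyte marker PTPRC at most 5.77. In 143BTK- the epithelial probe sets summed to 4181 to 5138 on the ρ+ and to 2959 to 5008 on the ρ° arrays. The epithelial list was therefore not silent in 143BTK-. The scales of the lines differ, so these sums cannot show how well the list separates them. The part of the lower epithelial markers in the results for A549 was not tested.

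PMAIP1 was the one member gene that passed the test. In A549 both of its probe sets rose in ρ° cells, by about 4-fold and 2.7-fold, and in 143BTK- neither did. PMAIP1 encodes NOXA, a small BH3-only protein whose gene is known to respond to the ATF4 branch of the stress responses. On the first probe set, 204285_s_at, the A549 signals were 375.6, 298.2 and 324.5 on ρ° arrays A, B and C and 128.2, 84.9 and 50.4 on ρ+ arrays A, B and C. The lowest ρ° array, at 298.2, lay well above the highest ρ+ array, at 128.2, so the groups did not overlap. Of all probe sets tested in A549, 31.9% had groups that did not overlap. For 204285_s_at, the mean ± SD over 3 arrays was 333 ± 39.4 for ρ° and 87.8 ± 39.0 for ρ+ cells. The log2 change was 2.02 (standard error 0.31, 95% interval 1.32 to 2.71), or 4.05-fold, with an adjusted p of 0.00434 from limma.

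On the second PMAIP1 probe set, 204286_s_at, the A549 signals were 93.7, 100.3 and 96.7 in ρ° cells against 34.1, 50.5 and 27.0 in ρ+ cells. The 3 ρ° arrays were close together and all above the ρ+ arrays. The log2 change was 1.43 (standard error 0.28, 95% interval 0.80 to 2.06), or 2.69-fold, with an adjusted p of 0.0124 from limma. Without the ρ° A array the change was 1.45 and no longer passed (adjusted p = 0.058 from limma), and with 64 added to each signal before log2 it was 0.68 (adjusted p = 0.00761 from limma), whereas the first probe set passed under each of the 15 other settings of the analysis tried for A549, with changes from 1.41 to 2.34.

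In 143BTK- the same 204285_s_at probe set gave 229.2, 193.5 and 394.0 in ρ° cells and 459.0, 224.6 and 475.3 in ρ+ cells. The ranges overlapped, and the ρ+ B array lay with the 2 lower ρ° arrays. The log2 change was −0.50 (95% interval −1.33 to 0.34, adjusted p = 0.759 from limma). For 204286_s_at the 143BTK- signals were 62.4, 71.7 and 109.5 in ρ° and 140.7, 53.7 and 128.0 in ρ+ cells, again with overlap and again with the ρ+ B array the lowest of its group. The log2 change was −0.33 (95% interval −1.24 to 0.59, adjusted p = 0.864 from limma).

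The 2 lines differed in the change of PMAIP1. For 204285_s_at, the change in A549 exceeded that in 143BTK- by 2.51 on the log2 scale (standard error 0.52, 95% interval 1.40 to 3.63, adjusted p = 0.0276 from limma). This call held under 13 of 22 other settings, with adjusted p between 0.0178 and 0.0819. It did not pass without the A549 ρ° A (0.0819), ρ° B (0.0523) or ρ+ B (0.0701) array or the 143BTK- ρ° A (0.0709), ρ+ A (0.0665) or ρ+ C (0.0531) array (limma, adjusted p in brackets), where the difference was 2.32 to 2.59. With the 143BTK- arrays ρ+ C and ρ° B both left out the difference was 2.11 (adjusted p = 0.0796 from limma). For 204286_s_at the difference was 1.76 (standard error 0.52, adjusted p = 0.0924 from limma), which did not pass. Averaged over both lines, the changes were 0.76 and 0.55 (limma, adjusted p = 0.119 and 0.245).

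**Figure D1:**
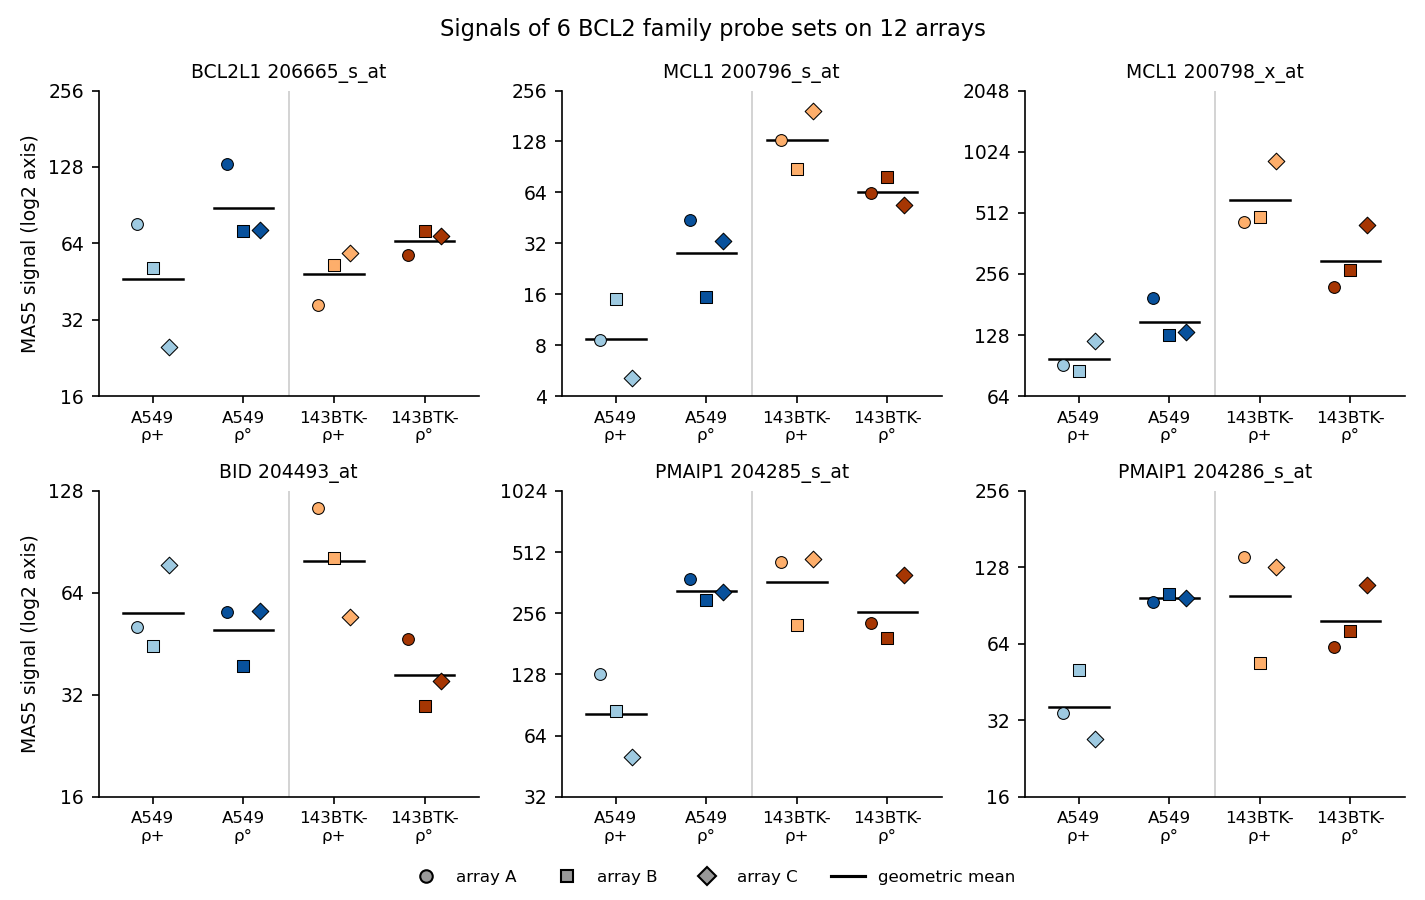
MAS5 signals (log2 axis, separate for each panel) of the 6 member probe sets with an unadjusted p under 0.05 in either line, on the 12 arrays, in ρ+ and ρ° cells of A549 and 143BTK-; symbols are arrays A, B and C and the lines are geometric means. The A549 ρ° arrays of PMAIP1 204285_s_at, at 298.2 to 375.6, all lie above the ρ+ arrays, at 50.4 to 128.2, and in 143BTK- the groups of both PMAIP1 probe sets overlap.

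The promoter of PMAIP1 is shown because it belongs to the gene with the changed transcript; the arrays carry no measurement of the promoter itself. PMAIP1 lies on chromosome 18, and the 250 bases before its start in RefSeq are chr18:59899746-59899995 of GRCh38.p14 on the plus strand. They are given 5′ to 3′, with GC boxes (GGGCGG) and cAMP response half-sites (TGACG) of either strand in capitals.
PMAIP1: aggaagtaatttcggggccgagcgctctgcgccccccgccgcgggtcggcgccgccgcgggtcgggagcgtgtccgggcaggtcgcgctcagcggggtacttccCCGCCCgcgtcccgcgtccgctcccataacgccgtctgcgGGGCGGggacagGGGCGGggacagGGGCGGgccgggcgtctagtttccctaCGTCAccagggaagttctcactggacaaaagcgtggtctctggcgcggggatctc
GC made up 72.8% of these bases. The run held 4 GC boxes, at 146 to 141 bases before the start on the opposite strand and at 106 to 101, 94 to 89 and 82 to 77 on the gene's strand, and 1 cAMP response half-site at 55 to 51 on the opposite strand. Of 35114 upstream windows of this length, 42.6% held a GC box and 21.2% a half-site on either strand. Neither the full cAMP response element (TGACGTCA, in 1.65% of windows) nor the core of an amino acid response element (TGATGNAA, in 3.14%) was in the window. No CCAAT box (in 32% of windows), TATAAA (10.7%) or E-box CACGTG (6.35%) was found there. Promoters of 7 member genes were in the table, in 13 windows, and 5 of the 7 genes had a GC box and 4 had a half-site in at least 1 window. MCL1, BIK and BNIP3L were not among them.

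MCL1 had opposite signs of change in the 2 lines on the probe sets 200798_x_at and 200797_s_at, but neither line passed the test by itself. MCL1 is a short-lived anti-apoptotic protein. The probe set 200798_x_at, whose suffix marks probes that may also match other transcripts, gave 195.3, 127.9 and 132.8 in A549 ρ° cells and 91.4, 85.4 and 119.9 in ρ+ cells, so that all ρ° arrays were higher. In 143BTK- it gave 221.6, 267.4 and 446.2 in ρ° cells and 461.4, 487.7 and 920.1 in ρ+ cells, so that all ρ° arrays were lower. The closest pair of values in each line was near, at 127.9 against 119.9 in A549 and at 446.2 against 461.4 in 143BTK-.

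The log2 change of 200798_x_at was 0.61 in A549 (95% interval 0.05 to 1.16, adjusted p = 0.147 from limma) and −0.99 in 143BTK- (95% interval −1.77 to −0.21, adjusted p = 0.55 from limma). The difference between the lines was 1.60 (standard error 0.45, 95% interval 0.64 to 2.56), and its adjusted p of 0.0789 from limma missed the threshold. It passed only without the 143BTK- ρ° C array, where the difference was 1.89 (adjusted p = 0.0427 from limma), and with the array letter as a block (adjusted p = 0.0435 from limma). Under all other settings it stayed uncalled, and relative to the chromosome median it was 1.47 (adjusted p = 0.125 from limma).

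The other MCL1 probe sets differed among themselves. On 200797_s_at the ρ° arrays had 400.4, 582.6 and 402.4 and the ρ+ arrays 434.7, 449.9 and 291.9 in A549, with a log2 change of 0.24 (adjusted p = 0.549 from limma). In 143BTK- the values were 654.6, 1542.8 and 1305.7 against 1199.5, 1164.1 and 3156.3, with a log2 change of −0.58 (adjusted p = 0.755 from limma). The ρ+ C array stood above the other 5 arrays of that line. On 200796_s_at, the 143BTK- signals were 63.6, 79.4 and 53.8 in ρ° and 130.0, 88.3 and 195.0 in ρ+ cells, without overlap, and the log2 change was −1.01 (95% interval −1.77 to −0.26, adjusted p = 0.534 from limma).

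In A549 the 200796_s_at probe set was too dim to be tested. Its signals were 44, 15.4 and 33 in ρ° and 8.6, 15 and 5.1 in ρ+ cells, and the ρ+ mean was under the lowest mean of the kept probe sets, which was 19.1. The signs were reversed on 214057_at, with log2 changes of −0.50 in A549 and 0.58 in 143BTK- and overlapping arrays (adjusted p = 0.563 and 0.821 from limma). These signs rested on few arrays, since the A549 change was 0.07 without ρ° C and the 143BTK- change −0.37 without ρ+ C and ρ° B. The last, 214056_at, was tested in 143BTK- alone, with a log2 change of −0.57 and overlapping arrays (adjusted p = 0.821 from limma). MCL1 lies on chromosome 1, where the median log2 change was −0.04 in A549 and −0.15 in 143BTK-.

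BCL2L1 encodes BCL-XL, another guard of the outer membrane, and its 3 probe sets differed in sign. On 206665_s_at the A549 signals were 131.2, 71.6 and 72.1 in ρ° and 76.6, 51.3 and 25 in ρ+ cells. The highest ρ+ array lay above 2 of the ρ° arrays, and the ρ+ C array was the lowest of the 6. The log2 change was 0.93 (95% interval 0.01 to 1.84, adjusted p = 0.177 from limma). In 143BTK- it was 0.44, with signals of 57.6, 71.4 and 68.2 against 36.5, 52.8 and 58.6 (adjusted p = 0.725 from limma).

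On the second BCL2L1 probe set, 212312_at, the A549 signals were 329.4, 347.7 and 398.3 in ρ° and 428.5, 498.6 and 399.8 in ρ+ cells. All ρ° arrays were lower, the nearest pair being 398.3 and 399.8, and the log2 change was −0.30 (95% interval −0.70 to 0.10, adjusted p = 0.313 from limma). In 143BTK- the arrays overlapped and the log2 change was −0.31 (adjusted p = 0.876 from limma), or 0.11 without the ρ+ C array. The third, 215037_s_at, had log2 changes of 0.04 in A549 and 0.18 in 143BTK-, with overlap in both lines, and the A549 change was −0.39 without ρ° A and −0.48 without ρ+ C. The ρ° against ρ+ comparison therefore gave no single direction for BCL2L1.

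BCL2, the founding member and a guard like MCL1, mostly gave signals too low to test. Of its 4 probe sets, none passed the filter in A549, where the means were 2.17 to 21.4 in ρ+ and 3.17 to 13.1 in ρ° cells. The probe set 203685_at read 8.4, 12.5 and 8.1 in A549 ρ° and 19.4, 14.8 and 29.9 in ρ+ cells, all ρ° arrays being lower, but it was not tested and no fold is given. Also untested, 203684_s_at had all A549 ρ° arrays higher, at 3.8, 2.7 and 3 against 2.4, 2 and 2.1. In 143BTK- 203685_at read 38.9, 20.8 and 25.5 against 38.3, 30.3 and 22.7, with a log2 change of −0.12 (adjusted p = 0.956 from limma). The probe set 207004_at had a change of 0.45 there (adjusted p = 0.848 from limma), and the other 2, 203684_s_at and 207005_s_at, were not tested.

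BAK1, which encodes one of the effectors that open the outer membrane, had small changes in both lines on its single probe set, and neither passed the test. The A549 signals were 83.9, 74.4 and 76.5 in ρ° and 109.2, 107.2 and 70.3 in ρ+ cells. The ρ+ C array was the lowest of the 6, so the groups overlapped, and the log2 change was −0.26 (95% interval −0.81 to 0.29, adjusted p = 0.539 from limma). In 143BTK- the signals were 112.0, 97.2 and 100.6 against 119.2, 109.1 and 87.1, with a log2 change of −0.02 (95% interval −0.57 to 0.54, adjusted p = 0.996 from limma).

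BID, the BH3-only protein that is cleaved by caspase-8 and links death receptors to the mitochondrion, had the largest log2 change among the tested member probe sets that did not pass. On 204493_at the 143BTK- signals were 46.9, 29.7 and 35.1 in ρ° and 114.0, 81.2 and 54.3 in ρ+ cells. All ρ° arrays were lower, with a log2 change of −1.12 (95% interval −1.90 to −0.35), which did not pass (adjusted p = 0.499 from limma). In A549 the same probe set had overlapping arrays and a log2 change of −0.17 (adjusted p = 0.769 from limma), whose sign turned without ρ° B (0.01) or ρ+ C (0.07). The lines differed by 0.95 in this change, which did not pass either (adjusted p = 0.32 from limma). The second probe set, 211725_s_at, had overlapping arrays in each line, and its log2 change was −0.46 for 143BTK- and 0.30 for A549. BID and BIK lie on chromosome 22, where the median log2 change in 143BTK- was −0.25. With each array centred on the median log2 signal of the chromosome, BID 204493_at had a change of −0.89 in 143BTK-.

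The other BH3-only genes gave small or unmeasured changes. BAD, which is held inactive by phosphorylation when growth factors are present, had log2 changes of 0.11 and −0.00 in A549 and of 0.15 and 0.16 in 143BTK- on its 2 probe sets. On 209364_at the A549 signals were 233.0, 234.5 and 217.3 in ρ° and 242.4, 272.6 and 181.1 in ρ+ cells, and the 95% interval of the change was −0.47 to 0.46. BIK had a single probe set with signals of 6.9, 13.0 and 6.9 in A549 ρ° and 20.4, 29.7 and 9.6 in ρ+ cells, below the filter in both lines. BCL2L11 was measured by 1 tested probe set, 222343_at in 143BTK-, with a change of 0.07 (95% interval −1.04 to 1.19, adjusted p = 0.983 from limma). Its other probe set read between 0.5 and 11.6 on all 12 arrays.

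BNIP3L, the mitophagy receptor, had small changes in A549 on both of its probe sets, which did not pass the test. The signals of 221479_s_at were 169.9, 162.5 and 160.1 in ρ° and 169.7, 202.8 and 205.3 in ρ+ cells, with a log2 change of −0.23 (95% interval −0.66 to 0.20, adjusted p = 0.492 from limma). The 143BTK- ρ+ arrays were far apart, at 79.3, 180.8 and 356.9, and the ρ° arrays at 168.0, 330.5 and 182.6 lay within that range. The log2 change there was 0.33 (95% interval −0.82 to 1.48, adjusted p = 0.89 from limma), and without the ρ+ A array it was −0.23. The probe set 221478_at had changes of −0.14 in A549, or 0.15 without ρ+ C, and of 0.37 in 143BTK-, or −0.10 without ρ+ A. BNIP3L lies on chromosome 8, where the median log2 change in A549 was −0.26. With each array centred on the median log2 signal of the chromosome, the A549 changes of BNIP3L were 0.04 on 221479_s_at and 0.13 on 221478_at.

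**Figure D2:**
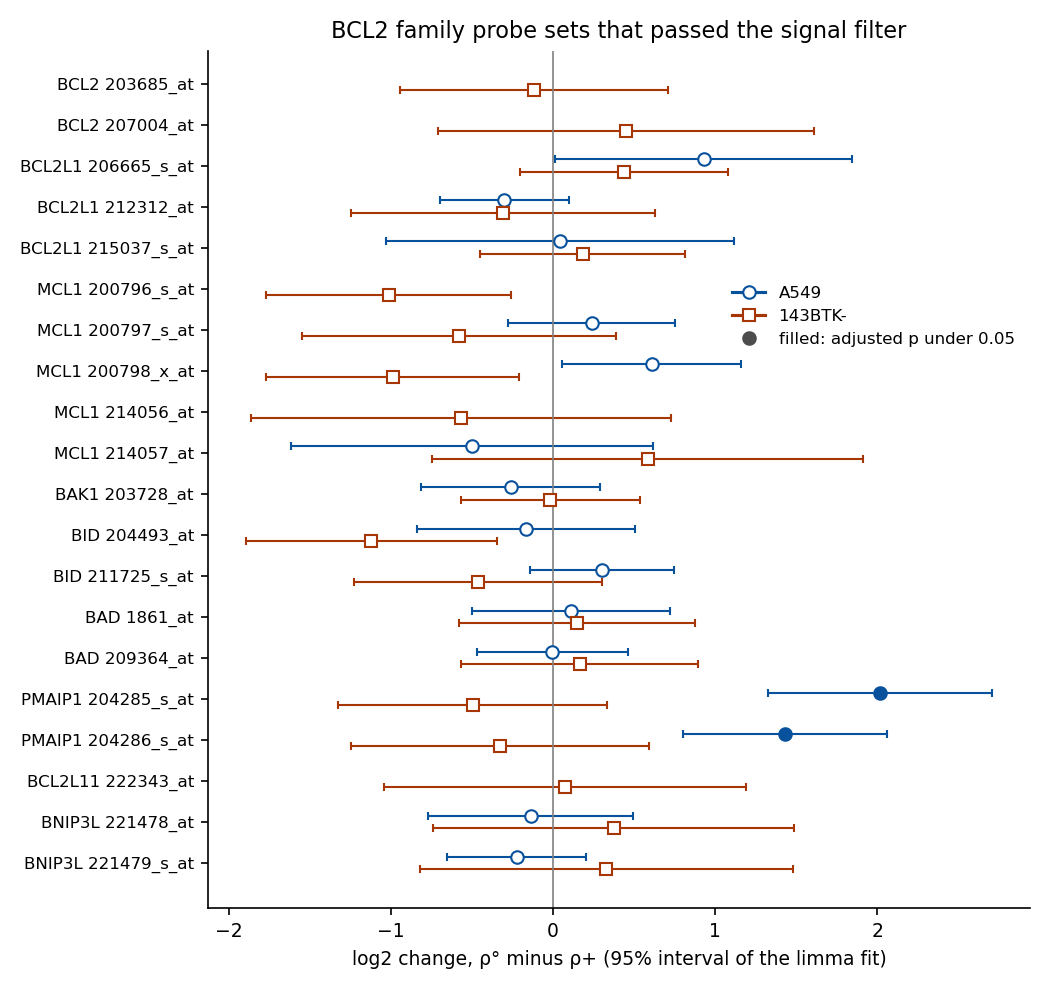
Log2 change (ρ° minus ρ+, horizontal axis) of the 20 member probe sets that passed the signal filter in at least 1 line, with 95% intervals from limma, for A549 (circles) and 143BTK- (squares). Filled symbols passed an adjusted p of 0.05: the 2 PMAIP1 probe sets in A549, at 2.02 and 1.43.

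As a group the members had changes of both signs, 8 positive and 7 negative in A549 and 9 positive and 11 negative in 143BTK-. Of these 35 changes, none of PMAIP1 but 16 of other members, all uncalled, turned their sign under at least 1 other setting. In A549, 2 of 15 member probe sets (13.3%) passed an adjusted p of 0.05, both higher in ρ° cells, against 10.9% of all tested probe sets. At an unadjusted p under 0.05 there were 4 of 15 (26.7%), all higher, against 27.4% of all probe sets, and these were the 2 probe sets of PMAIP1, MCL1 200798_x_at and BCL2L1 206665_s_at. Arrays of the 2 states did not overlap for 4 of 15 (26.7%), against 31.9% of all, and 3 of the 4 were higher. The median log2 change of the 15 was 0.04, and that of all probe sets was −0.00.

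In 143BTK- limma called 0 of 20 member probe sets and 0% of all tested probe sets. At an unadjusted p under 0.05 there were 3 of 20 (15%), all lower in ρ° cells, against 8.39% of all probe sets, and these were MCL1 200796_s_at and 200798_x_at and BID 204493_at. The same 3 had arrays that did not overlap (15%, against 14.8% of all). The median log2 change of the 20 was −0.07, and that of all probe sets was −0.00. For the change averaged over both lines, 0 of 15 passed (3.7% of all 12139 probe sets kept in both lines), and 3 of 15 had an unadjusted p under 0.05 (20%, against 20.6% of all), namely PMAIP1 204285_s_at, BCL2L1 206665_s_at and BID 204493_at. For the difference between the lines, 1 of 15 passed (6.67%, against 1.95% of all), and 3 of 15 had an unadjusted p under 0.05 (20%, against 17.3% of all), the 2 probe sets of PMAIP1 and MCL1 200798_x_at.

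**Figure D3:**
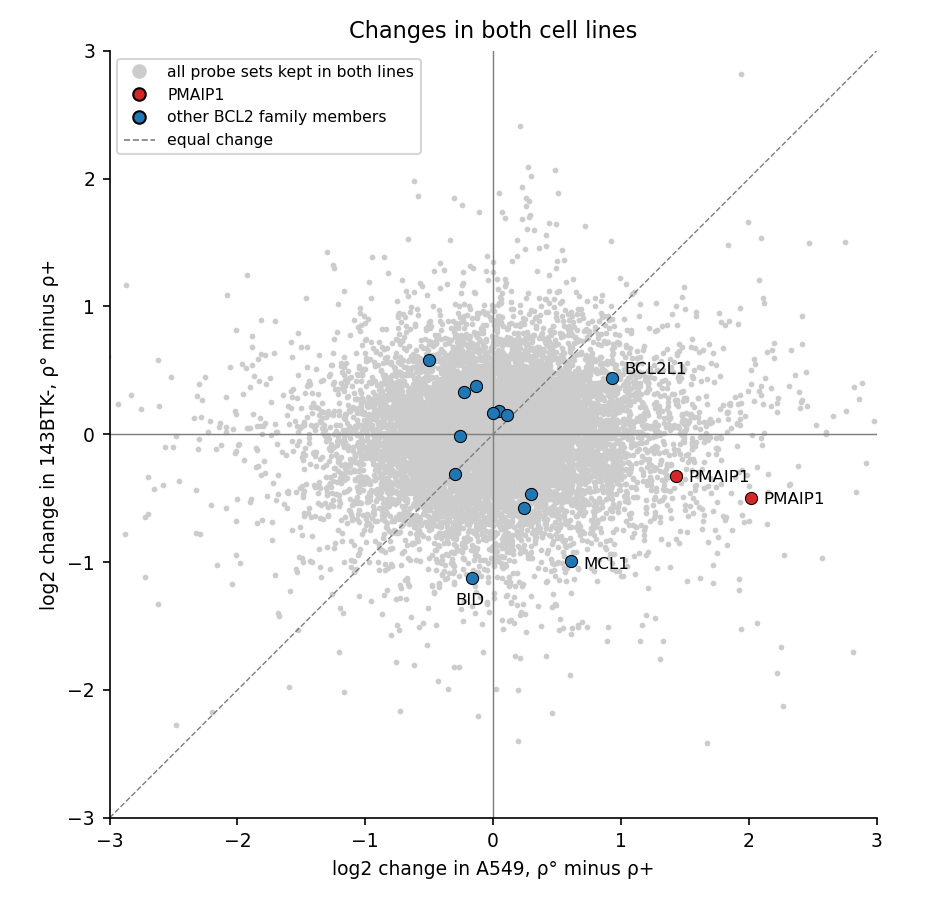
Log2 change in A549 (horizontal axis) against that in 143BTK- (vertical axis) for the 12139 probe sets kept in both lines (grey; 26 lie outside the axes), with the 15 member probe sets marked and the dashed line at equal change. The 2 PMAIP1 probe sets lie to the right of the other members, at 2.02 and 1.43 in A549 and below 0 in 143BTK-. This position is not particular to PMAIP1. A probe set of DDX3X had changes of 2.84 in A549 and −0.45 in 143BTK-. For a probe set of FXR1 they were 2.38 in A549 and −0.25 in 143BTK-.

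Genes that act beside the family were followed in 8 lists of 83 genes, of which 71 had probe sets of their own. In A549, 14 of 118 tested probe sets passed (11.9%, against 10.9% of all), 5 higher and 9 lower in ρ° cells. In 143BTK- 0 of 122 passed with limma, with 7 at an unadjusted p under 0.05 (5.74%, against 8.39% of all). The other 12 genes were not analysed here. Of the 14 list calls in A549, 1 held without an intensity trend in the variance and 4 with arrays centred on the chromosome median. Without the ρ° A, ρ° B and ρ+ B arrays, 1, 2 and 2 held. Without ρ+ A 8 held and with no filter on low signals 9. VDAC3 208845_at passed under all 15 other settings, and each of the other 13 under 6 to 11 of them.

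In the list of other BCL2 family genes, which also holds associated genes such as BAG1, 1 of 18 tested probe sets passed in A549 (5.56%, against 10.9% of all). It is 202387_at of BAG1, a co-chaperone that binds BCL2, whose 211475_s_at was not called. The signals of 202387_at fell from 148.3, 216.5 and 283.0 in ρ+ to 103.1, 108.7 and 94.8 in ρ° cells (log2 change −1.03, adjusted p = 0.0305 from limma). In 143BTK- the same probe set had overlapping arrays and a log2 change of the opposite sign, 0.86 (adjusted p = 0.668 from limma). BAX, the partner effector of BAK, did not pass: its 208478_s_at probe set gave 186.3, 171.4 and 154.6 in A549 ρ° and 140.1, 123.8 and 40.4 in ρ+ cells, with all ρ° arrays higher and a log2 change of 0.94 (adjusted p = 0.169 from limma). The log2 change of BAX in 143BTK- was 0.15 on this probe set (adjusted p = 0.908 from limma). BNIP3, the hypoxia-induced relative of BNIP3L, had A549 signals of 260.3, 263.4 and 321.0 in ρ° and 182.0, 181.5 and 227.6 in ρ+ cells on 201848_s_at, with a log2 change of 0.52 (adjusted p = 0.126 from limma) against 0.09 in 143BTK-. The other probe sets of BAX and BNIP3, 211833_s_at and 201849_at, were not called in either line.

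Downstream of the outer membrane, 2 of 10 probe sets of the apoptosome and caspase list passed in A549 (20%, against 10.9% of all), in opposite directions. CYCS, cytochrome c itself, fell by 0.74 on the log2 scale (adjusted p = 0.0456 from limma), and DFFA, the inhibitor of the caspase-activated DNase, rose by 0.98 (adjusted p = 0.0332 from limma). The call of CYCS held under 6 of 15 other settings, and its change relative to the chromosome median was −0.32 (adjusted p = 0.358 from limma). Among the inhibitors of apoptosis and their antagonists, 1 of 9 passed: BIRC5, or survivin, which also serves in mitosis, fell by 1.26 (adjusted p = 0.0383 from limma). In the death receptor branch 1 of 19 passed, and TNFRSF10B, a receptor for TRAIL, fell by 0.85 (adjusted p = 0.0429 from limma). No probe set passed among the 9 of MCL1 turnover, which hold the ubiquitin ligases HUWE1, FBXW7 and BTRC and the deubiquitinase USP9X, at 0 of 9 with limma and 1 of 9 at an unadjusted p under 0.05 (11.1%, against 27.4% of all).

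The list of outer membrane channels and binding partners held 7 of the 14 calls in A549, on 24 tested probe sets (29.2%, against 10.9% of all). VDAC3 and YWHAZ were each called on 2 probe sets. VDAC3, a channel of the outer membrane, fell on both of its called probe sets; on 208845_at it went from 1321.2, 1454.4 and 1732.9 in ρ+ to 556.6, 676.6 and 818.6 in ρ° cells (log2 change −1.14, adjusted p = 0.00521 from limma). PPIF, the cyclophilin of the permeability transition, fell by 1.00 on 201489_at (adjusted p = 0.0222 from limma), and its 201490_s_at had a log2 change of −0.44 that was not called. YWHAZ, a 14-3-3 protein that binds phosphorylated BAD, gave no single direction: 2 probe sets fell, by 0.89 and 0.67 (adjusted p = 0.0158 and 0.0197 from limma), while 200641_s_at had a log2 change of 0.89 that did not pass (adjusted p = 0.105 from limma) and 200638_s_at one of −0.10. Relative to the chromosome median, the change of the second called probe set, 200640_at, was −0.40 (adjusted p = 0.116 from limma). VDAC1 rose by 0.81 on 217140_s_at (adjusted p = 0.0238 from limma) and TPT1, which binds MCL1, by 0.48 on 216520_s_at (adjusted p = 0.029 from limma). No other probe set of VDAC1 or TPT1 was called. Of the 14 called probe sets, that of TPT1 alone also had 143BTK- arrays that did not overlap, with all ρ° arrays higher. Arrays did not overlap for 14.8% of all probe sets tested in 143BTK-. The called TPT1 probe set passed in the mean over both lines (0.37, adjusted p = 0.0212 from limma), as did the 2 YWHAZ probe sets (−0.59 and −0.39, adjusted p = 0.0254 and 0.0477 from limma). These mean changes passed under 14, 13 and 3 of 22 other settings in that order, and none of the 3 passed with no intensity trend or relative to the chromosome median, where that of TPT1 was 0.16 (adjusted p = 0.317 from limma). Nor did any pass without the A549 ρ° A or ρ+ B or the 143BTK- ρ° A or ρ+ B array.

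In the list of transcription factors that act on BH3-only genes, 0 of 12 probe sets passed in A549 and 0 of 13 in 143BTK- with limma, with 1 at an unadjusted p under 0.05 in each line (8.33% in A549 and 7.69% in 143BTK-, against 27.4% and 8.39% of all). ATF4, which is known to act on PMAIP1, had log2 changes of 0.31 in A549 and 0.45 in 143BTK- (limma, adjusted p = 0.37 and 0.581). For DDIT3, or CHOP, they were −0.51 and 0.49 (limma, adjusted p = 0.252 and 0.704). The difference between the lines passed for neither gene (−0.14 for ATF4 and −1.0 for DDIT3, adjusted p = 0.855 and 0.223 from limma).

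The mitophagy list had the highest median of the 8 in 143BTK-, 0.54 over 16 tested probe sets, and a median of 0.28 over 17 in A549. Of these, 2 passed in A549, both higher (11.8%, against 10.9% of all). In 143BTK- 0 passed with limma, with 4 of 16 at an unadjusted p under 0.05 (25%, against 8.39% of all). On 202074_s_at OPTN, an autophagy receptor, gave 342.7, 415.5 and 291.5 in A549 ρ° and 211.3, 194.7 and 183.5 in ρ+ cells (log2 change 0.82, adjusted p = 0.0284 from limma). Its log2 change in 143BTK- was 0.79 (adjusted p = 0.621 from limma). BECN1, whose product binds BCL2, rose by 0.73 in A549 on 208945_s_at (adjusted p = 0.0379 from limma) and had a change of 0.53 in 143BTK- (adjusted p = 0.703 from limma). In the mean over both lines, the changes of OPTN and BECN1 on these probe sets were 0.80 and 0.63 and missed the threshold (adjusted p = 0.0561 and 0.0755 from limma). The other probe sets of OPTN and BECN1, 202073_at and 208946_s_at, were not called.

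**Figure D4:**
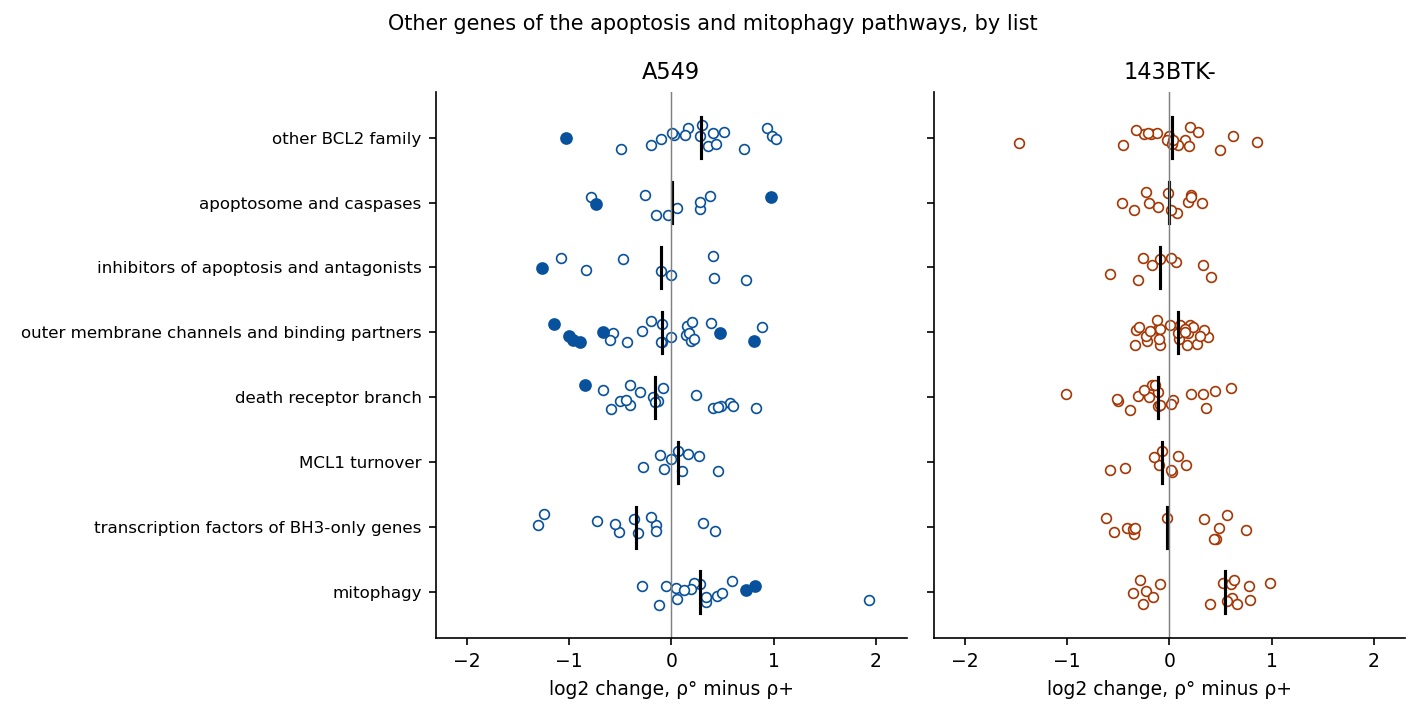
Log2 change (ρ° minus ρ+) of each tested probe set of the 8 pathway lists in A549 (left) and 143BTK- (right); points are probe sets, filled where the adjusted p was under 0.05, and black bars are medians. Filled points occur in A549 alone, 14 of 118, with the mitophagy medians at 0.28 and 0.54.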

How the data were processed

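RNA from 12 extractions was hybridized to HG-U133A arrays. The deposited intensity values are MAS5 signals that the authors quantile-normalized for each line on its own; none of the 12 value columns was set aside. The authors' power law error model rested on an independent data set not used here, so log2 signals were fitted with limma 3.58.1 in R 4.3.3 (lmFit, eBayes with an intensity trend, two-sided, Benjamini-Hochberg over all kept probe sets, threshold 0.05). Each line was fitted alone, and a fit of 4 groups over 12 arrays served to average and to compare the lines' changes. Kept probe sets were those of highest mean log2 signal, as many as the methods kept. The number of arrays limits the precision, and p-values measure the spread between these extractions. The methods describe no repeat of the depletion in either line. A change particular to the ρ° population of a line therefore cannot be told apart from an effect of mtDNA loss or of the line. The fit was also run on simulated data with known changes and independent noise, which cannot show how it handles deviations shared between arrays.

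Of 22283 probe sets, 19071 had 1 gene (19059 matched RefSeq by gene ID), 1043 several and 2169 none. Every member probe set is given; other pathway genes are named where a probe set passed, with BAX, BNIP3, ATF4 and DDIT3, the last 2 chosen after their values were seen. Members and lists were chosen with earlier results of these data known. A fold is given only where both means exceeded the lowest kept mean, 19.1 in A549 and 12.6 in 143BTK-. Arrays share the letters A, B and C between groups; deviations of same-lettered arrays correlated at 0.0605 to 0.117 in A549 and at −0.0975 to 0.376 in 143BTK-, so the letters were not taken as pairs. Promoter sequences are from RefSeq (GRCh38.p14). Alternatives were the offset, filter, variance trend, block, normalization over 12 arrays, chromosome centring and left-out arrays. Chromosome centring subtracted, on each array, the median log2 signal of the kept probe sets of a chromosome. Changes given relative to the chromosome median come from that fit.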

Additional observations from a re-analysis of the deposited data

Results flagged for a closer look

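The change of PMAIP1 204285_s_at in A549 exceeded that in 143BTK- by 2.51 on the log2 scale (standard error 0.52), and limma's test of that difference gave an adjusted p of 0.0276, which is why it stands here. In A549 it was higher on 3 of 3 ρ° arrays than on any ρ+ array, and in 143BTK- the groups overlapped. Of all probe sets tested in A549, 31.9% had groups that did not overlap.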

How the results depend on the processing

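The 2 member calls in A549, both of PMAIP1, held with 16 or 64 added before log2, with no filter, with no intensity trend, with the array letter as a block, with quantile normalization over 12 arrays and with each chromosome centred; with a mean signal of at least 100, 1 was called since 204286_s_at was no longer tested. Leaving out 1 array gave 1 to 2. In 143BTK- 0 members were called under any setting, and over all probe sets 0, or 1 with the block.

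The difference between the lines called 1 member. It called 0 with no trend, 2 with the block (MCL1 200798_x_at was added), 0 with 143BTK- ρ+ C and ρ° B left out, 0 with both ρ+ C arrays left out (these 2 settings were chosen after seeing the data), and 0 to 2 leaving out 1 array each, where PMAIP1 204286_s_at passed without 143BTK- ρ+ B (2.20, adjusted p = 0.0365 from limma). Over all probe sets, no trend gave 770 calls in A549 against 1422, 233 in the mean change against 449 and 130 in the difference against 237, and chromosome centring gave 276 in the mean change. Leaving out 1 array gave 425 to 1921, 110 to 548 and 61 to 311 calls.

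Over 1448 recomputed changes of single probe sets, 1230 kept their direction and side of the threshold, 126 lost their call and 3 gained one. The other 89, all uncalled, changed sign, 72 by less and 17 by more than 1 standard error. No called value changed sign. Another 33 had no value. Apart from the calls named, the block ended those of TNFRSF10B (adjusted p = 0.0618) and BECN1 (0.0544) in A549 and left 1 of 3 list calls in the mean change. Low signals limit BCL2, BIK and BCL2L11, which the filter kept mostly untested.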
